A study of Mus musculus with 9 samples.

Results

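The immediate early genes Egr1, Fos, Fosb, Jun, Junb, Atf3, Ier2, Nr4a1, Dusp1 and Ccn1 were followed in mouse lung, as the 10 rows of the gene table that carry these symbols among 21930 genes. All 10 were among the 15636 genes that passed the filter on low counts. Lungs came from 9 C57BL/6 mice labelled male and 6 to 8 weeks old, with 3 per group and 1 library per lung, which the series' design text calls biological replicates. LPS plus RSBD mice received lipopolysaccharide (LPS, an endotoxin of bacterial outer membranes that is sensed by Tlr4) in the trachea at 2 mg/kg and then a decoction of the herbal formula Renshen Baidu Powder (RSBD) by daily gavage. LPS mice received the same LPS and vehicle by gavage, and control mice received saline in the trachea, and whether vehicle gavage followed in them is not stated apart from the shared protocol. Every mouse was anesthetized with tribromoethanol for the instillation, with collection on day 5. The labels start the gavage 1 day after LPS and give 5 daily doses, so the number received before collection is unclear. The whole lung was used, and in such bulk samples fewer cells of a type and less RNA per cell cannot be told apart.

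Immediate early genes are switched on within minutes of a stimulus by proteins already present in the cell, without new protein synthesis. Growth factor, stretch, cytokine and stress signals reach them through MAP kinases, which act on serum response factor and its partners at CArG boxes, and through CREB and ATF proteins, which bind the cyclic AMP response element (CRE). Egr1 encodes a zinc finger transcription factor, Fos, Fosb, Jun, Junb and Atf3 encode leucine zipper proteins that pair into AP-1 and related dimers, and Nr4a1 encodes an orphan nuclear receptor. Ier2 encodes a small nuclear protein, Dusp1 a phosphatase that switches off MAP kinases, and Ccn1 a secreted matricellular protein that is also a target of the Hippo pathway effector YAP. In lung these genes are known to respond to stretch, injury and inhaled LPS.

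The 10 genes were chosen by their fold changes in these same libraries, with lower levels in LPS than in control lungs and levels in LPS plus RSBD lungs in view, so their levels and fold changes are given below as descriptions. Total counts per library ranged from 26959662 to 36113905. Reads of chromosome Y genes numbered 7511 to 10918 in LPS plus RSBD libraries and 8278 to 8839 in LPS libraries, but 6 to 9 in control libraries, whereas all mice are labelled male. Each comparison with control libraries is therefore also one between libraries with and without chromosome Y transcripts, and the pair of factors cannot be told apart. The comparison of LPS plus RSBD with LPS is free of this difference, and all 10 genes lie on autosomes. The lung markers Sftpc, Sftpb, Ager, Scgb1a1 and Cldn18 were detected and tested in this tissue, with summed levels of 32800 to 41400 CPM in LPS plus RSBD, 25800 to 40400 CPM in LPS and 33500 to 48200 CPM in control libraries. CPM are counts scaled to a library of 1000000 reads after TMM normalization.

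Promoters are shown because several of the genes (Egr1, Fos, Fosb and Ccn1) were low together in LPS lungs, and their part in this was not tested. RefSeq's promoter table (GRCm38.p6) matched 8 of the 10 genes, all but Egr1 and Ier2, and 1 window per gene was used. The windows of Atf3, Nr4a1 and Dusp1 lie inside the gene ranges given below. That of Nr4a1 precedes an internal start, well downstream of 101254269, where its transcript with the longest coding region begins. The 250 bases before the start were searched on both strands. The core TGACG of a CRE, which reads as CGTCA when it lies on the other strand, was found in 7 of the 8, against 17.8% of 32851 promoters in the table. It was found in those of Fos, Fosb, Junb, Atf3, Nr4a1, Dusp1 and Ccn1, and not in that of Jun. Only exact letters were searched, and the Jun window holds tgacatca, which resembles the full CRE, TGACGTCA. The match was present in genes called lower in LPS than in control lungs by edgeR (Fos, Fosb and Ccn1). It was also present in genes that were not called (Junb, Atf3, Nr4a1 and Dusp1). Shown here, 5′ to 3′ along each gene's strand, are the 60 bases around the match nearest the start, with whole matches in capitals, and for Jun the 60 bases nearest its start.
Fos, chr12:85473797-85473856, plus strand: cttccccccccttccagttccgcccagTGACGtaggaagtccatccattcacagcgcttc
Fosb, chr7:19310073-19310132, minus strand: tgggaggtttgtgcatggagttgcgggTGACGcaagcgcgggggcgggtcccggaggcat
Junb, chr8:84978822-84978881, minus strand: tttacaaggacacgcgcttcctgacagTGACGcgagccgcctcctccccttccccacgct
Jun, chr4:95052223-95052282, minus strand: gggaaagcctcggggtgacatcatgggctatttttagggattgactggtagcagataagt
Atf3, chr1:191183334-191183393, minus strand: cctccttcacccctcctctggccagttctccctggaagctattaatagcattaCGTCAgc
Nr4a1, chr15:101266779-101266838, plus strand: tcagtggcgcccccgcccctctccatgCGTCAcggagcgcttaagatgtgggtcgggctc
Dusp1, chr17:26508580-26508639, minus strand: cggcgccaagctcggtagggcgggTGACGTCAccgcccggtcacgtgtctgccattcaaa
Ccn1, chr3:145650011-145650070, minus strand: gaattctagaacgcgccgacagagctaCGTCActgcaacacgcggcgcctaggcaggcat
In Dusp1 the capitals are 2 overlapping matches that form the full palindromic CRE, TGACGTCA, which 1.55% of all promoters hold. Nr4a1 held 4 matches in its 250 bases and Dusp1 3, against 2 in Fos and 1 each in Fosb, Junb, Atf3 and Ccn1. A TATAAA box was found in Fos and Ccn1 (12.4% of all promoters), a GCGNGGGCG sequence, the site that Egr1 binds, in Fosb and Nr4a1 (4.7%), and CCAAT in Jun and Junb (33.8%). No CArG box (1.47% of all promoters) and no TGANTCA sequence (6.75%) was found in the 8 windows, which says only that these letters do not lie in these 250 bases.

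The genes were short, in GENCODE M21 on GRCm38. In the transcript with the longest coding region, 6 of the 10 spanned under 5000 bases of genome, against 13.2% of 15598 tested genes, and 3 (Jun, Junb and Ier2) had a single exon, against 2.94%. The median span was 3286.5 bases over the 10 genes and 21665 bases over the tested genes. The pentamer ATTTA, the core of the AU-rich elements that mark unstable messenger RNAs, was found in the 3′ untranslated region of 9 of the 10 genes, against 67.6% of 14384 genes whose region has at least 100 bases. Ccn1 held 5 copies, Fos, Jun and Dusp1 4 each, Atf3 and Nr4a1 3, Egr1 and Junb 2, Fosb 1 and Ier2 0. Per kilobase the median was 3.68 copies over the 10 genes and 1.26 over the tested genes. Jun, Junb, Atf3 and Dusp1 overlap other annotated genes on the opposite strand (Junos, Prdx2, Gm24748, and Gm8225 with Ergic1), and Dusp1 also 2 noncoding models on its own strand. The libraries were strand-specific, but whether counting used the strand is not given in the sources used here.

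Levels between genes were compared in the authors' deposited TPM, which account for transcript length. Dusp1 and then Jun had the highest means of the 10 in every group, at 242.6 ± 51.4 and 121.7 ± 5.31 TPM in LPS plus RSBD, 130.4 ± 9.48 and 120.1 ± 16.8 TPM in LPS and 174.1 ± 47.8 and 140.6 ± 11.8 TPM in control lungs (SD, n = 3 each). Fosb was the least abundant, at 2.753 ± 0.741 TPM in LPS plus RSBD, 1.261 ± 0.478 TPM in LPS and 11.89 ± 6.84 TPM in control lungs. In LPS lungs the order was Dusp1, Jun, Junb, Ier2, Ccn1, Nr4a1, Fos, Atf3, Egr1 and Fosb. Between libraries there, Dusp1 overlapped Jun, Ier2 overlapped Ccn1 and Ccn1 overlapped Nr4a1, while Jun, Junb, Nr4a1, Fos, Atf3 and Egr1 each lay clear of the next gene down. In LPS plus RSBD lungs Ccn1, at 108.5 ± 34.6 TPM, stood above Ier2 and beside Jun and Junb, and in control lungs, at 120.6 ± 29.5 TPM, between Jun and Junb, with overlap in each case, against 40.11 ± 9.74 TPM in LPS lungs. Egr1 stood above Atf3 in LPS plus RSBD lungs with no overlap (24.26 ± 4.67 and 10.37 ± 2.08 TPM) and below it in LPS lungs with no overlap (4.856 ± 0.964 and 9.245 ± 1.44 TPM), while in control lungs the pair overlapped (28.23 ± 9.7 and 17.87 ± 6.36 TPM). In control lungs each gene overlapped the next in the order, except Junb, which lay clear above Ier2.

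Egr1 (ENSMUSG00000038418, chr18:34859823-34864984 in the files' GRCm38 coordinates), whose protein binds GC-rich promoters and carries many signals from MAP kinases to growth, inflammation and repair genes, was low in LPS lungs. LPS plus RSBD libraries 1 to 3 held 69.23, 70.99 and 50.2 CPM, against 9.064, 15.84 and 13.96 CPM in LPS libraries 1 to 3. Control libraries 1 to 3 held 56.3, 94.85 and 56.72 CPM. All 3 LPS libraries lay below all the others, and the other groups overlapped. The mean was 4.9-fold higher in LPS plus RSBD than in LPS, a log2 fold change of 2.29 ± 0.27 (SE). In LPS it was 5.35-fold lower than in control, a log2 fold change of -2.42 ± 0.27. Between LPS plus RSBD and control the log2 fold change was -0.13 ± 0.26.

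Fos (ENSMUSG00000021250, chr12:85473890-85477273), the founding Fos family partner of Jun proteins, showed a like arrangement with a smaller span. Its level was 53, 64.44 and 68.19 CPM in the LPS plus RSBD libraries, set against 19.95, 27.95 and 20.1 CPM in LPS libraries and 63.41, 41.49 and 35.37 CPM in control libraries. LPS libraries were again below all others, and the highest control library was control 1, in which Egr1 and Fosb were at their lowest control values. Log2 fold changes were 1.45 ± 0.22 for LPS plus RSBD over LPS, -1.04 ± 0.22 for LPS over control and 0.40 ± 0.22 for LPS plus RSBD over control.

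Fosb (ENSMUSG00000003545, chr7:19302696-19310051), a close Fos relative, differed from Fos in LPS plus RSBD lungs. Levels were 4.031, 7.519 and 6.361 CPM in LPS plus RSBD libraries, 2.823, 1.698 and 2.907 CPM in LPS libraries and 12.56, 37.28 and 20.99 CPM in control libraries. The 3 groups did not overlap, with LPS lowest and control highest. The LPS values rest on 52 to 80 reads per library. Fosb was 2.41-fold higher in mean in LPS plus RSBD than in LPS (log2 1.27 ± 0.42), but stayed 3.96-fold below control (log2 -1.99 ± 0.40). In LPS it was 9.54-fold below control (log2 -3.26 ± 0.43). The ratio of Fos to Fosb in TPM was 16.2 to 26 in LPS plus RSBD, 11.3 to 30.1 in LPS and 1.98 to 9.34 in control libraries, so that all control ratios lay below all others. This ratio was chosen after its values were seen.

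**Figure D1:**
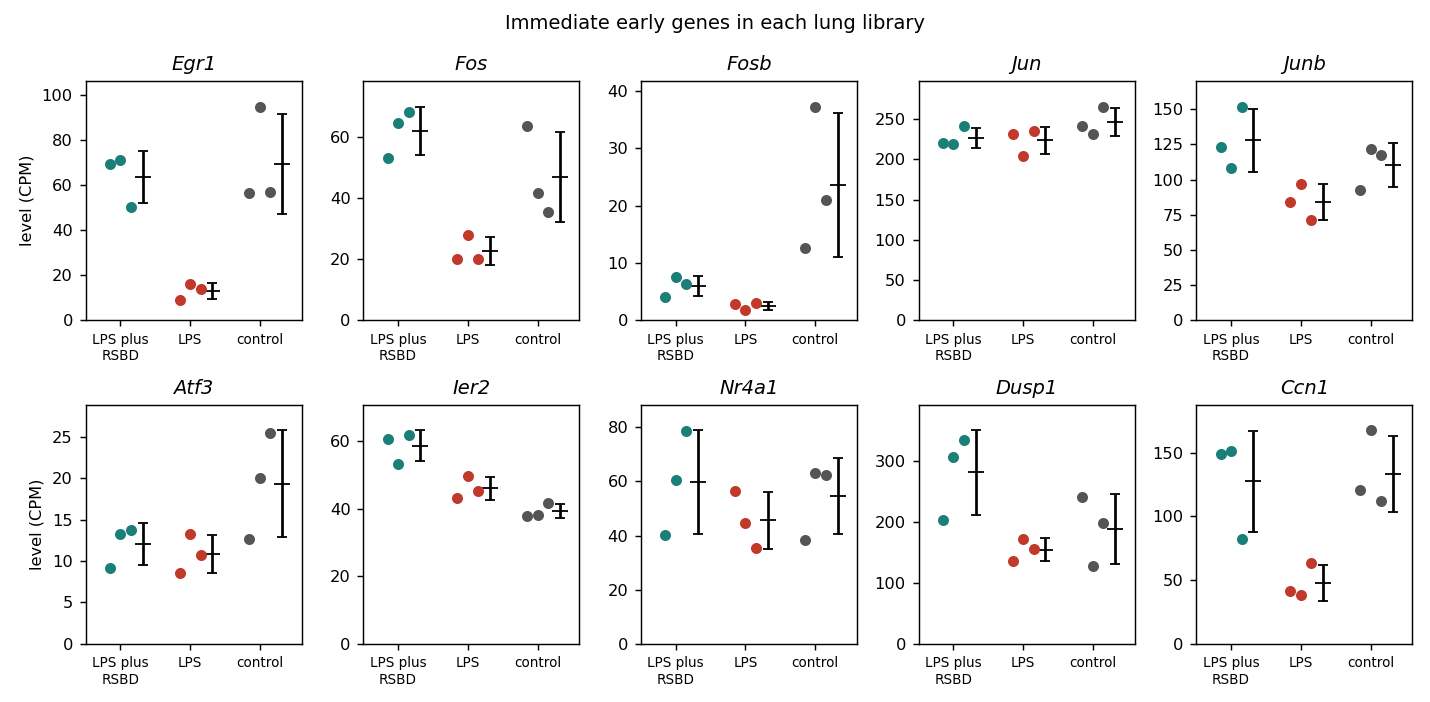
Level in CPM of each of the 10 genes in each of the 9 libraries, by group from left to right LPS plus RSBD, LPS and control (points in the order of replicates 1 to 3; bars, mean and SD, n = 3; each panel has its own axis from 0). The LPS libraries lie below all others for Egr1, Fos, Fosb and Ccn1, whereas Jun stays between 204.4 and 265.7 CPM in every library.

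Among the Jun proteins, which bind DNA with Fos proteins or with each other, Jun (ENSMUSG00000052684, chr4:95049034-95052222) hardly varied. It had 218.7 to 241.3 CPM in LPS plus RSBD, 204.4 to 235.2 CPM in LPS and 231.9 to 265.7 CPM in control libraries, and all groups overlapped. Log2 fold changes of Jun were 0.02 ± 0.09 for LPS plus RSBD over LPS, -0.14 ± 0.09 for LPS over control and -0.12 ± 0.09 for LPS plus RSBD over control. Junb (ENSMUSG00000052837, chr8:84976910-84978718), a weaker activator than Jun that can restrain it, measured 123.1, 108.4 and 151.9 CPM in LPS plus RSBD libraries, 83.99, 97.15 and 71.38 CPM in LPS libraries and 92.26, 121.4 and 117.3 CPM in control libraries. LPS plus RSBD lay wholly above LPS (log2 0.60 ± 0.16), and control overlapped both (log2 -0.39 ± 0.16 for LPS and 0.21 ± 0.16 for LPS plus RSBD). Atf3 (ENSMUSG00000026628, chr1:191170296-191218039), a stress-induced repressor of inflammatory genes, measured 9.103, 13.33 and 13.74 CPM in LPS plus RSBD, 8.581, 13.26 and 10.76 CPM in LPS and 12.63, 20 and 25.48 CPM in control libraries. The LPS plus RSBD and LPS values covered nearly the same range, 0.15 ± 0.27 apart on the log2 scale, and were 0.69 ± 0.27 and 0.83 ± 0.27 below control, with overlap of control 1 in both cases.

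Ier2 (ENSMUSG00000053560, chr8:84661331-84662854) was the member whose LPS level lay above control. It measured 60.68, 53.25 and 61.69 CPM in LPS plus RSBD libraries, 42.98, 49.7 and 45.21 CPM in LPS libraries and 37.79, 38.18 and 41.63 CPM in control libraries. The 3 groups did not overlap, with control lowest and LPS plus RSBD highest. Log2 fold changes were 0.35 ± 0.09 for LPS plus RSBD over LPS, 0.23 ± 0.09 for LPS over control and 0.58 ± 0.09 for LPS plus RSBD over control. Nr4a1 (ENSMUSG00000023034, chr15:101254269-101274795), known to curb inflammatory genes in macrophages, overlapped between all groups, at 40.25, 60.47 and 78.52 CPM in LPS plus RSBD, 56.35, 44.8 and 35.54 CPM in LPS and 38.53, 63.11 and 62.52 CPM in control libraries. Its log2 fold change in LPS plus RSBD over LPS was 0.39 ± 0.28.

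Dusp1 (ENSMUSG00000024190, chr17:26505590-26562128), which dephosphorylates p38 and JNK kinases and is also induced by glucocorticoids, was at 203.5, 306.3 and 335.2 CPM in LPS plus RSBD libraries. LPS libraries had 135.7, 173 and 155 CPM, and control libraries 241, 127.7 and 198.8 CPM. The LPS plus RSBD libraries lay above the LPS libraries (log2 0.87 ± 0.25), and control overlapped both groups, with a log2 fold change of -0.29 ± 0.24 for LPS and 0.57 ± 0.24 for LPS plus RSBD. Ccn1 (ENSMUSG00000028195, chr3:145646976-145649981), which binds integrins on fibroblasts, endothelium and leukocytes, was at 149.1, 151.7 and 82.08 CPM in LPS plus RSBD, 41.53, 38.21 and 63.67 CPM in LPS and 120.7, 167.7 and 112.4 CPM in control libraries. Its LPS values lay below all others, and LPS plus RSBD library 3 lay below every control library. Log2 fold changes were 1.42 ± 0.28 for LPS plus RSBD over LPS, -1.48 ± 0.28 for LPS over control and -0.07 ± 0.27 for LPS plus RSBD over control.

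**Figure D2:**
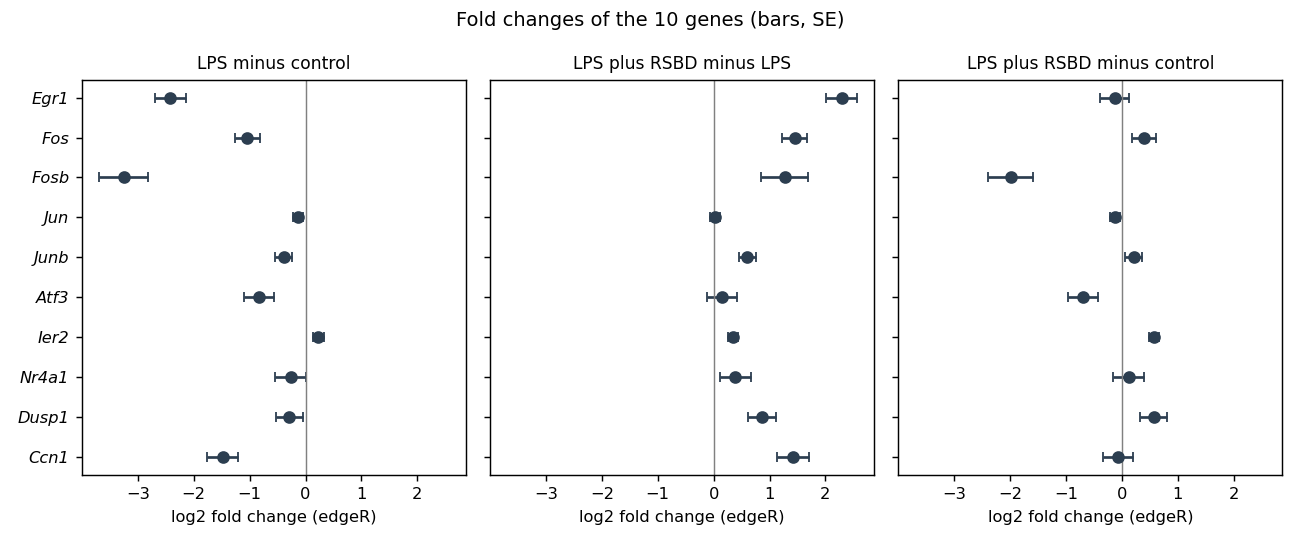
Log2 fold change of each of the 10 genes (points) with its SE (bars) in LPS minus control, LPS plus RSBD minus LPS and LPS plus RSBD minus control, from edgeR's quasi-likelihood fit. Egr1 stands at -2.42, 2.29 and -0.13 in the 3 panels and Fosb at -3.26, 1.27 and -1.99.

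All 10 log2 fold changes of LPS plus RSBD over LPS were above 0, with a median of 0.73 against 0.01 over all tested genes. LPS plus RSBD lay wholly above LPS for 7 of the 10 (Egr1, Fos, Fosb, Junb, Ier2, Dusp1 and Ccn1) and wholly below for 0, where 7.18% of all tested genes lay wholly above and 5.46% wholly below. By edgeR's quasi-likelihood test with Benjamini-Hochberg adjustment, however, 0 of the 10 passed 0.05, and 0 of all 15636 genes did (0% called). The members' adjusted p ran from 0.205 for Egr1 to 0.966 for Jun. At an unadjusted p under 0.05, 7 of the 10 passed, the same genes that did not overlap, as did 1473 genes in all (9.42%). Ordered by p over all tested genes, Egr1 stood at place 1, Fos at 4 and Ccn1 at 29, and Jun at 13272. DESeq2 called 166 genes (1.08%), with 5 of the 10 among them (Egr1, Fos, Junb, Dusp1 and Ccn1, all higher). Limma on log2(TPM + 1) called 1 gene (0.00665%), which was Egr1. Since the genes were picked with these results in view, neither the counts nor the places are evidence beyond the values themselves.

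In LPS against control, 4 of the 10 (Egr1, Fos, Fosb and Ccn1) were past the threshold and lower, and 0 higher, where 17.4% of all tested genes were called, 8.63% lower and 8.79% higher. Limma on log2(TPM + 1) split the calls over all genes otherwise, with 1334 lower and 701 higher, against 1349 and 1374 by edgeR, and its median over all genes was -0.089. The count of members was 5 by DESeq2, by limma with a filter, with the replicate block and without control 1, Atf3 being the addition, and 3 without LPS 3. The same 4 lay wholly below control and Ier2 wholly above, against 19.5% and 18.6% of all tested genes. The median log2 fold change of the 10 was -0.61, against -0.01 over all tested genes. This is the comparison behind the choice of genes, so nothing is read from the count. Against control, 1 of the 10 was past the threshold and higher in LPS plus RSBD (Ier2) and 1 lower (Fosb), against 1.89% and 1.8% of all tested genes and 3.7% in either direction. Limma on log2(TPM + 1) again called more genes lower (215) than higher (98), against 282 and 296 by edgeR. The same pair were the 1 member wholly above and the 1 wholly below control, against 15.4% and 15% of all tested genes, and the median over the 10 was 0.03. The 3 comparisons share libraries in pairs. In LPS plus RSBD against control, Fosb was no longer past the threshold in 9 of 17 alternatives (adjusted p up to 0.0882). These left out LPS 3, any LPS plus RSBD library, control 2 or control 3, or used the replicate block. The rest were the fit of only these groups and limma with no filter. Ier2 was lost without control 2 and by limma with no filter (adjusted p up to 0.0647). Fos was the member lost in LPS against control without LPS 3.

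Libraries of one group differed more for most of these genes than for the usual gene. The SD of log2 CPM within groups was 0.58 for Fosb, 0.41 for Nr4a1 and Ccn1, 0.40 for Atf3, 0.38 for Egr1, 0.36 for Dusp1, 0.32 for Fos and 0.23 for Junb, against a median of 0.19 over all tested genes. Ier2 and Jun, at 0.10, were steadier than most, with 16.6% and 14.9% of tested genes below them. Control libraries did not rank alike across genes. Control 2 was highest for Egr1, Fosb, Junb, Nr4a1 and Ccn1 and lowest for Dusp1 and Jun, while control 1 was highest for Fos and Dusp1.

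Paralogs of these genes were looked at next, and they were named after their values were seen. Egr3, which like Egr1 binds GC-rich sites, had 4.83, 6.91 and 4.65 CPM in LPS plus RSBD, 2.12, 2.97 and 4.03 CPM in LPS and 2.5, 5 and 4.98 CPM in control libraries, and Egr2 stayed between 1.71 and 5.49 CPM in all. Neither passed the test in any comparison (edgeR adjusted p of 0.489 for Egr3 and 0.856 for Egr2 in LPS plus RSBD against LPS). Fosl2, a Fos family member, averaged 112.1 ± 36.7 CPM in LPS plus RSBD, 111 ± 18.9 CPM in LPS and 147.8 ± 23.3 CPM in control lungs, and Jund, the most constitutive Jun protein, 104.7 ± 7.67, 91.58 ± 14.4 and 106.4 ± 7.82 CPM (SD, n = 3 each), with no call. Nr4a2, a second orphan receptor of the Nr4a family, had 7.07, 11.1 and 12.9 CPM in LPS plus RSBD, 7.02, 6.82 and 6.91 CPM in LPS and 7.07, 10.3 and 13.6 CPM in control libraries. All LPS libraries lay below all others, by little for library 1 of each group, and no comparison passed (edgeR adjusted p = 0.534 for LPS plus RSBD against LPS and 0.152 for LPS against control). Of all tested genes, 19.5% lay wholly below control in LPS, and 7.18% wholly above LPS in LPS plus RSBD. Nr4a3 measured 2.4 to 7.2 CPM in LPS plus RSBD, 1.5 to 3.74 CPM in LPS and 3.06 to 17 CPM in control libraries, a log2 fold change of -2.15 ± 0.67 in LPS over control that did not pass (edgeR adjusted p = 0.0546; it passed by DESeq2 and without control 1). Ccn2, the nearest relative of Ccn1 and a shared YAP target, overlapped between all groups, at 136.3 ± 37.5, 109 ± 23.1 and 148 ± 31.7 CPM in the same order.

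A list of 67 other early response genes, of which 65 were tested, was set with earlier results of these data known. In LPS against control, 11 fell, 2 rose and 52 did not pass, where 8.63% of all tested genes were called lower and 8.79% higher, and the median log2 fold change was -0.28, against -0.01 over all tested genes. Among transcription factors Maff, a small Maf protein, fell to 22.14 ± 1.51 CPM in LPS, against 49.52 ± 12.3 CPM in control lungs (log2 -1.16 ± 0.18, edgeR adjusted p = 0.00576), and Bhlhe40, a repressor tied to the clock, by 0.88 ± 0.18 (edgeR adjusted p = 0.0139). Among feedback regulators Trib1, a pseudokinase, fell to 38.65 ± 2.94 CPM, against 72.83 ± 9.88 CPM (log2 -0.91 ± 0.12, edgeR adjusted p = 0.00326), and Zfp36l1, which degrades AU-rich messenger RNAs, by 0.46 ± 0.08 (edgeR adjusted p = 0.00662). Zfp36 itself, Ier3, Errfi1 and Nab2, the corepressor that binds Egr proteins, fell as well (calls lost for Zfp36 and Errfi1 in 8 of 17 alternatives each, with adjusted p up to 0.132 and 0.11, and for Nab2 without control 2). Nab2 had 31.5 to 34.1 CPM in LPS plus RSBD, 22.3 to 28.1 CPM in LPS and 32 to 47.5 CPM in control libraries. Sgk1, a kinase induced by serum and glucocorticoids, rose to 223.7 ± 27.3 CPM in LPS, against 126.2 ± 10.3 CPM in control lungs (log2 0.83 ± 0.11, edgeR adjusted p = 0.00326), and Rgs2, a brake on G protein signals, rose too. Of secreted factors Hbegf, an EGF receptor ligand, fell by 0.81 ± 0.18, Lif, a cytokine of the Il6 family, by 1.68 ± 0.47 and Il6 by 1.79 ± 0.55 (edgeR adjusted p = 0.0181, 0.039 and 0.0477). Calls were lost for Bhlhe40 without control 2 (adjusted p = 0.0551), for Hbegf without LPS 2 or control 2 (up to 0.0539), for Lif in 8 of 17 alternatives (up to 0.123) and for Il6 in 13 (up to 0.187). The count of 13 went to 8 without LPS 2 and to 6 without control 2.

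None of these 65 genes (0) passed in LPS plus RSBD against LPS by edgeR, 8 had an unadjusted p under 0.05 (9.42% of all tested genes did), 3 passed by DESeq2 (1.08% of all), and their median log2 fold change was 0.17, against 0.73 for the 10 genes and 0.01 over all tested genes. Against control, 4 fell in LPS plus RSBD lungs and 1 rose. Maff fell by 0.97 ± 0.18, Trib1 by 0.66 ± 0.12, Ier3 by 0.68 ± 0.13 and Hbegf by 0.97 ± 0.18, and Rgs2 rose by 0.80 ± 0.15 (edgeR adjusted p = 0.0246, 0.0238, 0.0242, 0.0249 and 0.0246). None of these 5 was past the threshold without LPS plus RSBD 2 or without control 2 or control 3.

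The genes that encode the upstream kinases and factors, and the partners of AP-1, were also counted. Of 24 upstream signalling genes, including Srf partners, Creb1 and the ERK, JNK and p38 kinases, 2 rose in LPS against control and 0 fell, near the 8.79% of all tested genes called higher, so the count is no result about the list. They were Mapk3, which encodes ERK1, by 0.45 ± 0.09 (edgeR adjusted p = 0.0132), and Rps6ka1, an ERK-activated kinase, by 0.33 ± 0.09 (edgeR adjusted p = 0.0402), and the median of the list was -0.01. Mapk3 was not called without LPS 2, control 2 or control 3 (up to 0.054), nor Rps6ka1 in 12 of 17 alternatives (up to 0.26). Of 17 AP-1 and ATF partners tested, 5 fell in LPS lungs, namely Mafk, Mafg, Atf4, Atf5 and Atf7, and 0 rose, where 8.63% of all tested genes were called lower. The count was 2 without LPS 2 or control 2 and 3 without control 3. Atf5 was not called without LPS 2 or control 2 (adjusted p up to 0.0692), Atf4 also not without control 3 (up to 0.0907), and Atf7 in 12 of 17 alternatives (up to 0.126). The small Maf genes Mafk and Mafg, whose proteins pair with Bach and Nrf2, were low in both LPS groups. Mafk had 73.55 ± 0.936 CPM in LPS plus RSBD and 70.69 ± 3.13 CPM in LPS, against 114.1 ± 12.6 CPM in control lungs (edgeR adjusted p = 0.0108 for LPS plus RSBD and 0.00316 for LPS). Mafg had 86.71 ± 6.76 and 88.99 ± 6.57 CPM, against 130.4 ± 11.5 CPM (edgeR adjusted p = 0.0147, lost without LPS plus RSBD 2 or control 3 with up to 0.0651, for LPS plus RSBD, and 0.00751 for LPS). Of 14 other Hippo and serum response factor targets, 2 rose in LPS against control and 1 fell. Over all tested genes 8.79% were called higher and 8.63% lower, so these counts are no result about the list. The cytoplasmic actins Actg1 and Actb rose, by 0.71 ± 0.11 and 0.60 ± 0.10 (edgeR adjusted p = 0.00485 and 0.00738). Amotl2, a junction protein and YAP target, fell by 0.43 ± 0.09 (0.0152, lost without LPS 2, LPS 3 or control 2, up to 0.0651). In LPS plus RSBD against control only Actg1 was called, higher by 0.54 ± 0.11 (edgeR adjusted p = 0.0275). That call was lost in 8 of 17 alternatives (up to 0.105), and 1.89% of all tested genes were called higher.

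**Figure D3:**
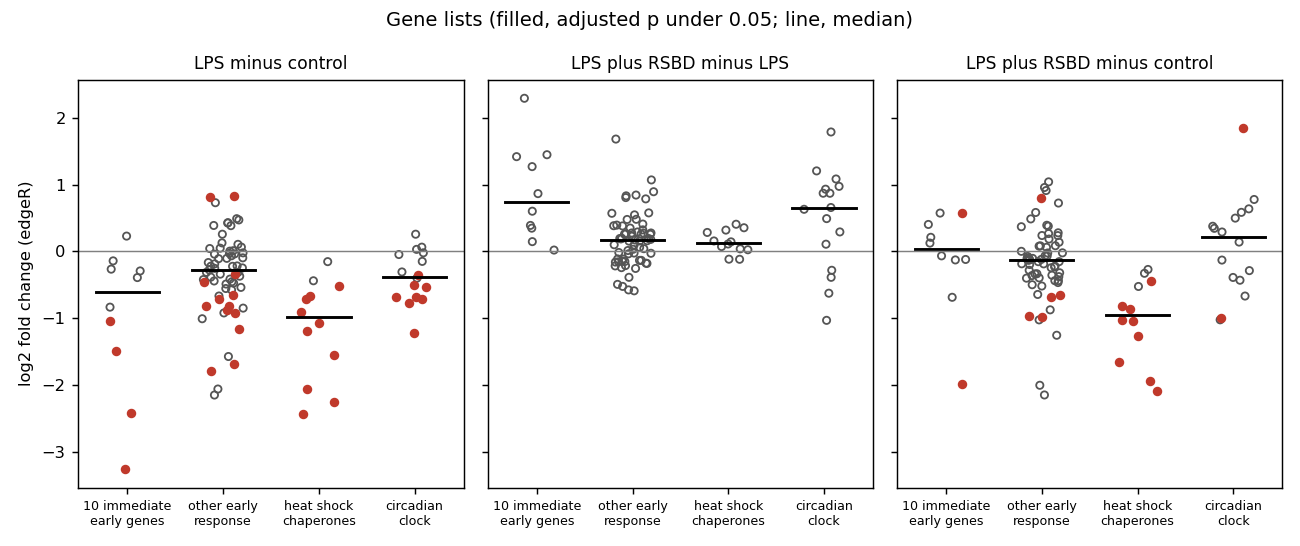
Log2 fold change of every tested gene (points) of 4 gene lists in the 3 comparisons, filled where edgeR's adjusted p was under 0.05, with the median of each list as a line. The heat shock medians are -0.99, 0.13 and -0.95 from left to right, whereas those of the 10 immediate early genes are -0.61, 0.73 and 0.03.

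Several other gene groups moved in the same libraries, and their part in the levels above was not tested. Heat shock chaperone genes, which like immediate early genes answer to stress, fell in 10 of 12 cases in LPS against control (median -0.99, with 8.63% of all tested genes lower) and in 9 of 12 in LPS plus RSBD against control (median -0.95, with 1.8% of all lower), while in LPS plus RSBD against LPS 0 passed by edgeR, by DESeq2 or at an unadjusted p under 0.05, and the median was 0.13. The count of 9 was 1 without LPS plus RSBD 2 or control 2 and 2 without control 3. Calls against control in LPS plus RSBD were lost for Hspa1a and Hspa1b, which encode inducible Hsp70, without LPS plus RSBD 2 or control 2, and for Hspa1a also without control 3 (adjusted p up to 0.0632). Hspa1b measured 3.4, 3.65 and 5.38 CPM in LPS plus RSBD libraries, 2.75, 2.87 and 4.07 CPM in LPS libraries and 9.99, 21 and 21.5 CPM in control libraries. Fosb was likewise below control in both LPS groups without overlap, whereas Egr1, Fos and Ccn1 in LPS plus RSBD lungs overlapped control. Lying wholly below control was common, at 19.5% of all tested genes in LPS and 15% in LPS plus RSBD. Clock genes fell in 8 of 16 cases in LPS against control (8.63% of all tested genes did), and that count was 1 without LPS 2, LPS 3 or control 3, 3 without control 1 and 4 without LPS 1 or with the replicate block. For LPS plus RSBD against LPS 0 passed by edgeR, 11 had an unadjusted p under 0.05 (9.42% of all) and 9 passed by DESeq2 (1.08% of all), with a median of 0.64. Of the 16, 12 had a log2 fold change above 0 and 4 below it, namely Arntl (-1.03), Npas2 (-0.62), Nfil3 (-0.39) and Clock (-0.28). In LPS plus RSBD against control 1 was called higher (Dbp) and 1 lower (Arntl), against 1.89% and 1.8% of all tested genes. That count of 2 ran from 0 to 6 over the alternatives. Per2, a clock repressor, had 61.5, 74.2 and 108 CPM in LPS plus RSBD, 43.1, 44.8 and 40.1 CPM in LPS and 87, 83.5 and 127 CPM in control libraries. Dbp, a clock output factor, had 106, 125 and 73.1 CPM in LPS plus RSBD, 19.2, 35 and 33.8 CPM in LPS and 43.4, 15.1 and 25.8 CPM in control libraries. Hour of collection is not given in the sources used here.

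Markers of cell types were summed per library. The 5 ciliated cell markers spanned 428 to 639 CPM in LPS plus RSBD, 343 to 489 CPM in LPS and 501 to 798 CPM in control libraries, with 4 of 5 called lower in LPS against control. The 5 club cell markers were Scgb1a1, Scgb3a2, Cyp2f2, Bpifb1 and Muc5b. They spanned 27100 to 34500, 20200 to 30600 and 27800 to 40200 CPM in the same order, with overlap, and 2 of 5 were called lower in LPS against control. Over all tested genes 8.63% were called lower and 8.79% higher in LPS against control, and 1.89% higher in LPS plus RSBD against control. All 4 NK cell markers were called higher in both LPS groups than in control. Their sums were 46.6 to 80.6 CPM in LPS plus RSBD and 35.1 to 53.5 CPM in LPS, against 10.1 to 16.3 CPM in control. Monocyte and recruited macrophage markers spanned 344 to 526, 445 to 637 and 254 to 324 CPM, and neutrophil markers 505 to 2840, 1980 to 5320 and 556 to 1780 CPM, in the same order. Alveolar macrophage markers spanned 797 to 1610 CPM in LPS plus RSBD, 1710 to 3560 CPM in LPS and 1140 to 1500 CPM in control libraries. Adipocyte markers spanned 7.31 to 41, 2.91 to 5.87 and 10.5 to 19.8 CPM in the same order, lowest in LPS, and cardiac muscle markers 79.4 to 384, 35.8 to 66.5 and 41.7 to 296 CPM. Mesothelial markers spanned 24.6 to 33.4, 8.54 to 61.7 and 47.8 to 88.9 CPM. Endothelial markers were at 2710 to 2840 CPM in LPS plus RSBD, 2720 to 2950 CPM in LPS and 2320 to 2440 CPM in control libraries. Erythroid markers spanned 4660 to 9480 CPM in LPS plus RSBD, 4650 to 8550 CPM in LPS and 547 to 4400 CPM in control libraries. Both LPS groups lay wholly above control in this sum, and 0 of 5 erythroid markers were called. Sums of fibroblast, smooth muscle, alveolar type 1, alveolar type 2, T cell and B cell markers were also made and are not given here. No defining marker of these lists was at 0 reads in all libraries. Mitochondrial transcripts took 2.67% to 3.36% of counts in LPS plus RSBD, 2.65% to 3.24% in LPS and 2.21% to 2.46% in control libraries.

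The 10 genes did not share one pattern over the 9 libraries, as seen when each gene was centred on its own mean log2 CPM and genes were ranked by the root mean square difference from Egr1 or from Fos. Of the other 9, Ccn1 was nearest to Egr1, at 0.51, and Dusp1 nearest to Fos, at 0.41, while Egr1 and Fos were 0.70 apart and Fos and Fosb 1.23 apart. Among 12387 genes outside the 10 with a mean of at least 5 CPM, the 5 nearest to Egr1 were Scgb3a1, Bpifb1, Muc5b, Muc4 and Serpina9, at 0.41 to 0.63. Scgb3a1, Bpifb1, Muc5b and Muc4 encode secreted or mucin proteins of the airway epithelium. Scgb3a1 had 482, 256 and 402 CPM in LPS plus RSBD, 61.6, 151 and 105 CPM in LPS and 275, 525 and 285 CPM in control libraries. The 5 nearest to Fos were Zkscan7, Per3, Nr1d2, Tef and Atp6v1b1, at 0.29 to 0.39, of which Per3, Nr1d2 and Tef belong to the circadian clock and its outputs. Per3 had 75.7, 77.8 and 90.2 CPM in LPS plus RSBD, 40.7, 41.2 and 42.3 CPM in LPS and 82.7, 47.7 and 68.9 CPM in control libraries. All points share the same 9 libraries, and nearness is a description.

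**Figure D4:**
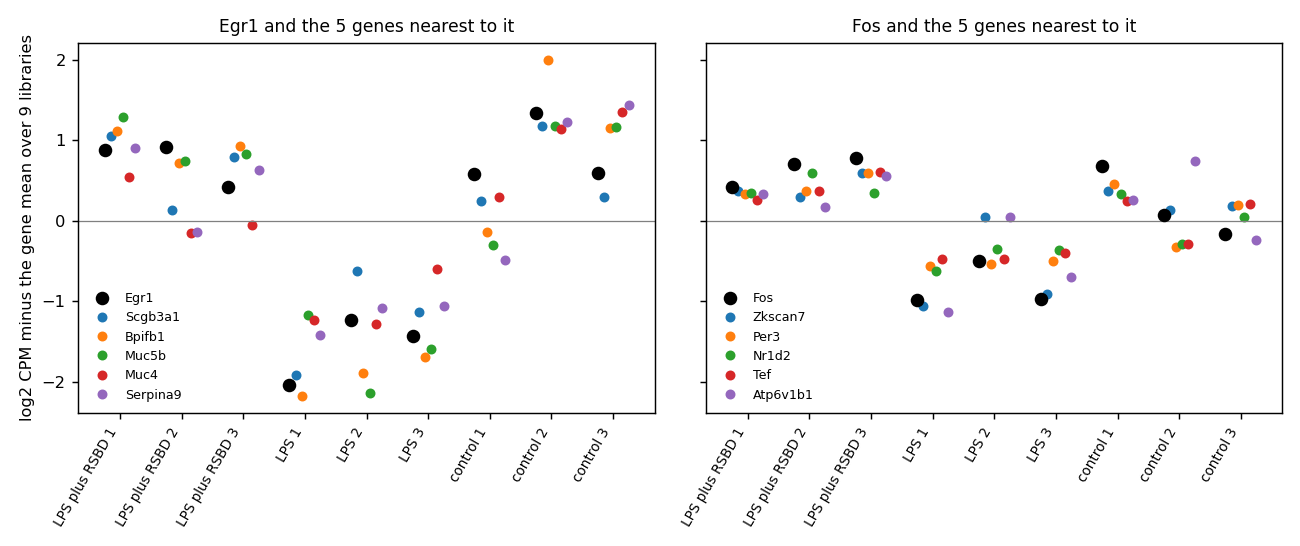
Log2 CPM minus the gene's mean over the 9 libraries for Egr1 (left, black) and Fos (right, black) with the 5 genes nearest to each (colours), by library. The LPS libraries hold the lowest values of both genes, and control 2 holds the highest value of Egr1, whereas LPS plus RSBD 3 holds that of Fos.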

How the data were processed

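Processing by the submitters, per their processing notes, involved DESeq2 (1.38.3), StringTie (2.2.0), HISAT2 (2.2.1) and fastp (0.23.2) on mouse GRCm38 (mm10), with roles and order not given. The authors deposited an estimated count (expected count) and TPM per gene for 21930 genes. All estimated counts as deposited were whole numbers, and which program made them is not stated. LPS plus RSBD columns were matched to titles by their first letters and replicate number.

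The edgeR analysis (edgeR 4.0.16, R 4.3.3) used filterByExpr with a minimum count of 10 and a minimum total of 15, TMM scaling, and 1 robust quasi-likelihood fit of 3 groups over 9 libraries. Benjamini-Hochberg adjustment covered 15636 genes, with a threshold of 0.05. The common coefficient of biological variation was 0.189 and the SE of log2 fold changes had a median of 0.15. The scripts were tested on simulated data. Alternatives were DESeq2 1.42.0, its size factors in edgeR, no filter, only the groups compared, a replicate block, limma 3.58.1 on log2 TPM, and each library left out. Same-numbered libraries did not deviate together (r from -0.21 to 0.12), so numbers were not treated as pairs.

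The members and gene lists were chosen with earlier results of these data known. Named genes are the 10 members, up to 3 called genes of smallest adjusted p per list and comparison, Hspa1a, Hspa1b, Per1, Per2 and Dbp, and the 5 genes nearest to Egr1 and to Fos (log2 CPM, prior count 2). Paralogs and other called list members were named after their values were seen.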

Additional observations from a re-analysis of the deposited data

How the results depend on the processing

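Counts of called genes and the fold changes of the members and named genes were recomputed under 17 alternatives, those of the shorter lists and of genes named later as an addition after seeing the data. Fold changes of Fosl2, Jund and Ccn2 and marker sums were not. For single genes this gave 1377 values, of which 1198 kept direction and side of the threshold, 144 kept direction but lost the call, 18 gained one and 17 changed sign. In LPS against control, 2723 genes became 1532 by limma on log2(TPM + 1) with no filter and 786 to 2870 with a library left out (786 without LPS 2, 892 without control 2, 999 without control 3, 1631 without LPS 3). The 4 members became 3 to 5 and the 13 other early response genes 6 to 17. In LPS plus RSBD against LPS, 0 genes became 166 by DESeq2, 1 by limma with either pseudocount (1 or 0.1), 1 with only these groups and 0 to 4 with a library left out. The 0 of 10 members became 5 by DESeq2, 1 by limma with either pseudocount and 0 to 1 with a library left out, and 0 other early response genes became 3 by DESeq2.

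In LPS plus RSBD against control, 578 genes became 1757 by DESeq2, 313 and 307 by limma with pseudocounts 1 and 0.1, 137 by limma with no filter and 94 to 961 with a library left out. The 2 members became 0 by limma with no filter, 1 with only these groups and 0 to 2 with a library left out, and the 5 other early response genes 12 by DESeq2, 1 by limma with no filter, 2 with only these groups and 0 to 8 with a library left out. Fits with the replicate number as a block called 1828 genes in LPS against control, 0 in LPS plus RSBD against LPS, and 240 genes, 1 member and 4 other early response genes in LPS plus RSBD against control, and turned Per1 in LPS against control to 0.0506. The cause of these changes was not tested.

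Some log2 fold changes changed sign with a library left out, and that of Per1 in LPS against control also with the replicate block. The ranges below are over all 17 alternatives. In LPS against control Per1 ran from -0.213 to 0.308 and Dbp from -0.236 to 0.524. For LPS plus RSBD against LPS Jun ran from -0.0397 to 0.0465 and Egr2 from -0.0504 to 0.598. In LPS plus RSBD against control Egr1 ran from -0.255 to 0.168, Nr4a1 from -0.124 to 0.345 and Ccn1 from -0.208 to 0.167.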
